A study of Pleuronichthys verticalis with 38 samples.

Results

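This account is about 100 liver transcripts of the hornyhead turbot (Pleuronichthys verticalis), a flatfish, that were clearly above the array's background in some fish and near it in others. They were chosen by measured values from 14757 probes. First, 4446 probes that the scanner software rated well above background on 3 to 35 of 38 arrays were taken. Of these, 12 whose level followed a co-varying set of transcripts (Pearson r of 0.8 or more with the mean of 3 probes of that set) were left out. From the remaining 4434, the 100 with the largest difference between the third-highest and the third-lowest fish were kept. A level here is the log2 processed signal of a probe minus the log2 of its array's 75th percentile, so a step of 1 is a factor of 2 and 0 is the signal of a fairly bright probe on that array. The choice used these levels over all fish, so the size of the spread between fish is a description and was not tested.

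The study injected fish once into the body cavity and took the liver 96 h later. The high PCB group (7 fish) had 10 µg polychlorinated biphenyls per g body weight and the low PCB group (5 fish) had 1 µg/g. The high PBDE group (6 fish) had 5 µg polybrominated diphenyl ethers per g and the low PBDE group (7 fish) had 0.5 µg/g. All were given in peanut oil at 2 mL/kg, which the oil controls (6 fish) had alone, and the seawater controls (7 fish) were not injected. For seawater control 7 the label fields differ on this, and it was grouped by its title. By the labels 10 fish were female, 26 male and 2 immature. Sexes were spread unevenly, with 4 females among 5 low PCB fish and none among the high PBDE fish. Each fish had its own 1-colour array, and fish are named below by group and the study's fish number.

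PCBs and PBDEs are persistent halogenated pollutants that build up in the liver, the organ that takes up and metabolises many foreign compounds. The liver also makes most plasma proteins and, in fish, the yolk precursors of maturing females. On a 1-colour array each probe is meant to bind labelled RNA of 1 transcript. Its brightness is read against the local background, so a transcript below detection and an absent one look the same. The files give each probe a contig number of the array's design and neither a gene name nor a probe sequence. The transcripts are therefore called by number, no role can be given for any of them, and the label liver could not be set against marker genes. Nor could it be checked whether a probe binds only its own transcript.

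The array's 75th percentile lay between 43.6 in high PCB 32 and 194 in low PCB 33, in the units of the processed signal. Probes well above background numbered 6113 in high PCB 32 and up to 10355 in seawater control 35. High PCB 32 thus had the dimmest array, and it was the lone array of its slide. The 2047 probes that no array rated well above background had a median level of -6.62 to -4.47, depending on the array. This band is what an undetected probe looks like here. The arrays lay on 8 slides scanned on 3 days, with 10, 21 and 7 fish.

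Each of the 100 members was printed on 1 spot, and no spot of a member was marked as an outlier. The members were well above background on 6 to 35 arrays, with a median of 26. In 7 of them this held for fewer than 10 fish, in 54 for 10 to 28 fish and in 39 for 29 to 35 fish. The widest spread between the third-highest and third-lowest fish was 10.19 in HT_SCCWRP_16112, followed by 10.13 in HT_SCCWRP_25169 and 9.85 in HT_SCCWRP_36740. The last transcript inside the choice was HT_SCCWRP_9252 with 5.11, and the first outside was HT_SCCWRP_2673 with 5.09, so the list has no natural end.

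Whether the 100 were truly on or off was read from the largest gap between neighbouring fish when the 38 levels were sorted, with at least 3 fish on either side. A gap of 1 log2 unit or more was present in 53 of the 100 members, of 2 or more in 12, of 3 or more in 6 and of 4 or more in 3. Among the 4434 probes they were chosen from, members included, 104 (2.35%) had a gap of 1 or more. Without the members it was 51 of 4334 (1.18%). Since the members were chosen for spread over the same levels, a larger share among them was built in. The median gap of the members was 1.06 log2 units. The name on or off therefore describes a small number of them well, and most of the others were graded from fish to fish, including the member with the widest spread, HT_SCCWRP_16112, whose largest gap was 1.31.

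**Figure D1:**
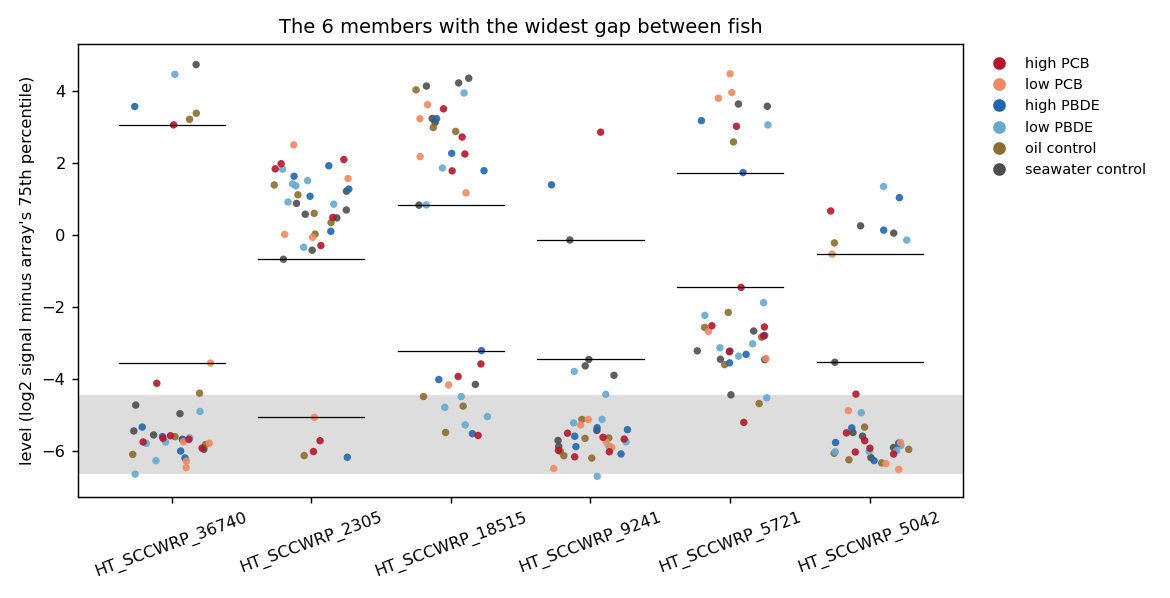
Level (log2 signal minus the array's 75th percentile, vertical axis) of the 6 members with gaps of 3 log2 units or more, 1 point per fish, coloured by group. Black lines mark the fish on each side of the gap, and the grey band spans the median level of never-detected probes over the 38 arrays (-6.62 to -4.47). Fish above and below the gap come from several groups in each member.

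HT_SCCWRP_36740 had the widest gap, 6.62 log2 units. Its level was 3.06 in high PCB 3, 3.57 in high PBDE 11 and 4.47 in low PBDE 48. It was 3.38 and 3.22 in oil controls 47 and 15, and 4.74 in seawater control 50. The highest of the other 32 fish was low PCB 2 with -3.56, and none of the 32 was rated well above background. In processed signal, the 6 fish lay between 702 and 3174 and the 32 fish at 5.05 or less. The 6 bright fish came from 5 of the 6 groups, the low PCB group having none, and were 5 males and 1 female. In a piece of whole liver, fewer cells that express a transcript and less of it per cell cannot be told apart.

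HT_SCCWRP_2305 was the reverse, present in 33 fish and near background in 5, with a gap of 4.39. The 5 dim fish were high PCB 3 at -5.71, high PCB 41 at -6.01, low PCB 2 at -5.06, high PBDE 4 at -6.17 and oil control 15 at -6.12. The other 33 lay between -0.67 in seawater control 35 and 2.51 in low PCB 29. All 7 low PBDE fish and all 7 seawater controls were among the 33. The dim fish were thus spread over 4 groups, 3 exposed to a pollutant and 1 given oil.

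Of the 6 members with gaps of 3 or more, HT_SCCWRP_18515 divided the fish most evenly, with 23 above a gap of 4.04 and 15 below. The 23 ran from 0.83 in seawater control 46 to 4.36 in seawater control 6, and the 15 from -5.57 in high PCB 25 to -3.21 in high PBDE 23. Above the gap were 4 of 7 high PCB fish, 4 of 5 low PCB, 3 of 6 high PBDE, 3 of 7 low PBDE, 3 of 6 oil controls and 6 of 7 seawater controls. Every group thus held fish of both kinds. Of the 10 females, 6 were above the gap, as were 15 of the 26 males.

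The other members with such gaps were bright in few fish. HT_SCCWRP_9241 was bright in high PCB 32 (2.86), high PBDE 11 (1.40) and seawater control 24 (-0.14), against -3.46 or less in the other 35 fish. HT_SCCWRP_5721 lay between 1.74 and 4.48 in 10 fish and at -1.45 or less in 28. Of the fish below the gap, 20 were still rated well above background in HT_SCCWRP_5721, 3 in HT_SCCWRP_9241 and 2 in HT_SCCWRP_18515. HT_SCCWRP_5042 lay between -0.53 and 1.35 in 9 fish and at -3.53 or less in 29. Both of these members had fish from all 6 groups above the gap.

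The 6 members with gaps of 3 or more did not mark the same fish. They gave 17 different on and off patterns over the 38 fish. High PCB 41 was below the gap in all 6. Of the 12 members with a gap of 2 or more, 10 had fish of 5 or 6 groups above the gap, and none had fish of fewer than 3 groups on either side.

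The number of members rated well above background per fish ranged from 46 in low PBDE 38 to 80 in low PCB 33, with a median of 64.5. By group the median was 61.0 in high PCB, 66.0 in low PCB, 64.0 in high PBDE, 68.0 in low PBDE, 67 in oil control and 56.0 in seawater control fish. The ranges of all 6 groups overlapped, the high PCB fish having 48 to 68 and the seawater controls 49 to 72. The same 2 arrays had 7303 probes of all kinds well above background in low PBDE 38 and 9481 in low PCB 33. The part of array brightness in the member counts was not tested.

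**Figure D2:**
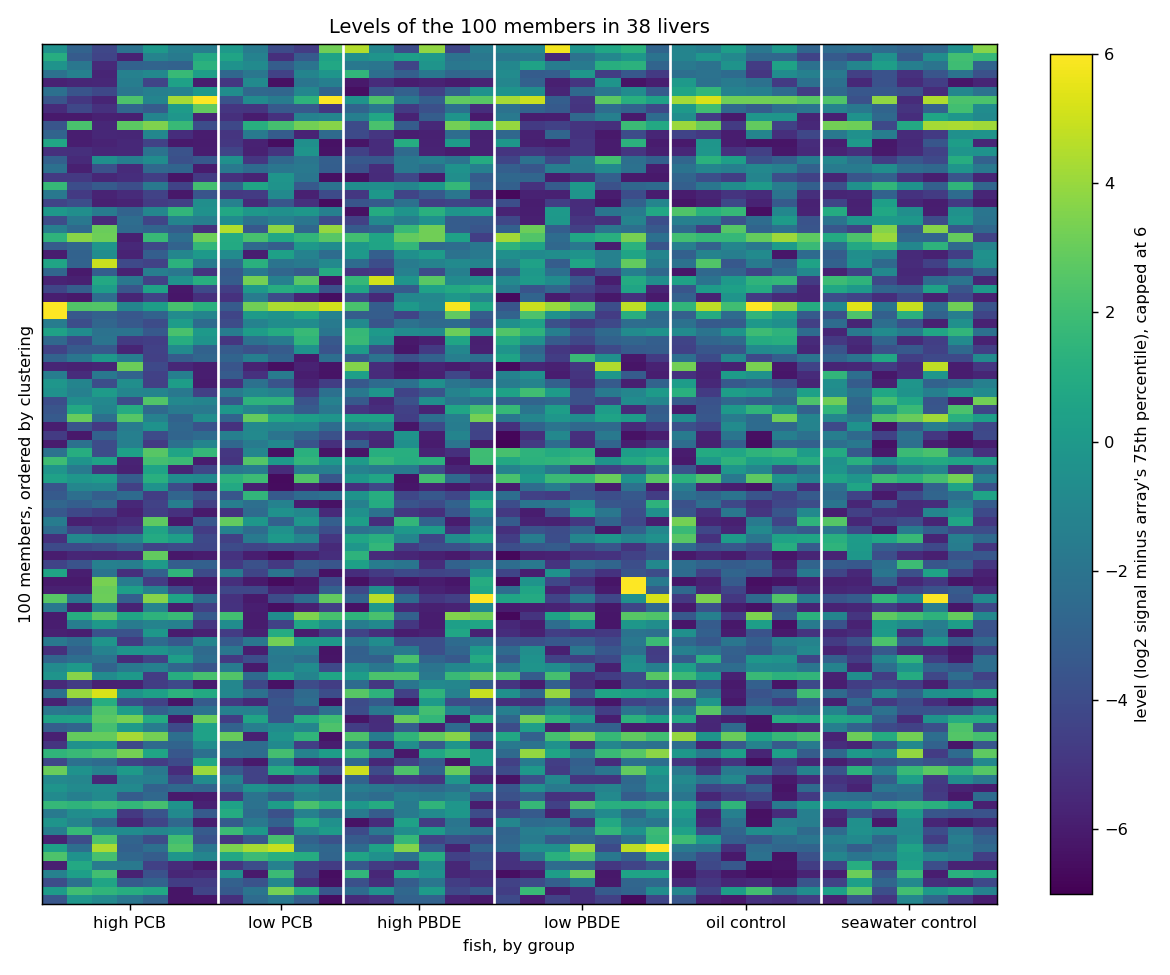
Levels (log2, colour, capped at 6) of the 100 members, ordered by clustering, in 38 livers arranged by group. Bright and dark cells alternate from fish to fish within every group.

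Most members were not correlated with each other. Over the 4950 pairs of members the median Pearson r across the 38 fish was 0.01, with a 5th to 95th percentile of -0.28 to 0.29. At 10 pairs r was above 0.7 and at 3 pairs it was below -0.7. Clustering by r joined 15 members into 1 set of 3 and 6 pairs and left 85 alone. These correlations describe 38 arrays that share slides and scan days, and the members were chosen on the same levels.

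The closest pair was HT_SCCWRP_3728 with HT_SCCWRP_31896 (r = 0.97, Spearman's rho = 0.96). Their spots lie 67 rows and 14 columns apart on the array. Within the fish of scan days 1, 2 and 3 r was 0.94, 0.98 and 0.99. HT_SCCWRP_3728 ran from -6.75 in low PBDE 12 to 3.54 in high PBDE 4, and both members were low in the same fish. Whether these probes belong to 1 gene cannot be read from the contig numbers. No other probe was this close to the pair: the next most similar, HT_SCCWRP_72122, had r = 0.64 with their mean.

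The other pairs were looser. HT_SCCWRP_25169 and HT_SCCWRP_63648 had r = 0.83, and HT_SCCWRP_43085 and HT_SCCWRP_27868 had r = 0.82. A probe outside the 100, HT_SCCWRP_224, had r = 0.93 with HT_SCCWRP_43085. HT_SCCWRP_9847 and HT_SCCWRP_50527 also had r = 0.82. HT_SCCWRP_3971 and HT_SCCWRP_59215 had r = 0.87 but rho = 0.51, and without low PBDE 5 and high PCB 25 r was 0.67. Low PBDE 5, at 8.61 for HT_SCCWRP_3971, stood far above the other fish. Within the fish of scan days 1, 2 and 3 r was 0.78, 0.89 and 0.90. HT_SCCWRP_63648, HT_SCCWRP_3971 and HT_SCCWRP_59215 were well above background on 8, 9 and 12 arrays, so most of their levels were not clearly above background. Members of 2 of these pairs partly followed the mean of the 3 probes used in the choice. Their r with it was 0.57 for HT_SCCWRP_25169, 0.51 for HT_SCCWRP_63648, 0.41 for HT_SCCWRP_3971 and 0.61 for HT_SCCWRP_59215. The median over the members was -0.02.

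A small opposed set was present as well. HT_SCCWRP_16112 ran against HT_SCCWRP_19367 (r = -0.77) and against HT_SCCWRP_28057 (r = -0.76). HT_SCCWRP_28057 and HT_SCCWRP_19367 were paired with each other (r = 0.76), and HT_SCCWRP_28057 also ran against HT_SCCWRP_1752 (r = -0.71). HT_SCCWRP_28057, HT_SCCWRP_19367 and HT_SCCWRP_1752 were well above background on 17, 14 and 15 of 38 arrays. Most of their levels behind these r values were thus not clearly above background. HT_SCCWRP_16112 was highest in high PCB 41 (9.21) and low PCB 52 (7.58), where HT_SCCWRP_28057 was at -5.41 and -6.53, both below detection. It was there below the lowest signal rated well above background on those arrays (-3.91 and -4.23). HT_SCCWRP_16112 was lowest in high PCB 25 (-5.64) and seawater control 46 (-5.38), where HT_SCCWRP_28057 was at 2.06 and 1.80. Fish of the same group therefore stood at opposite ends. Within scan days 1, 2 and 3 the r of HT_SCCWRP_16112 with HT_SCCWRP_28057 was -0.82, -0.81 and -0.70. Outside the 100, HT_SCCWRP_46883 had r = -0.89 with HT_SCCWRP_28057, and HT_SCCWRP_9205 had r = 0.87 with HT_SCCWRP_16112.

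**Figure D3:**
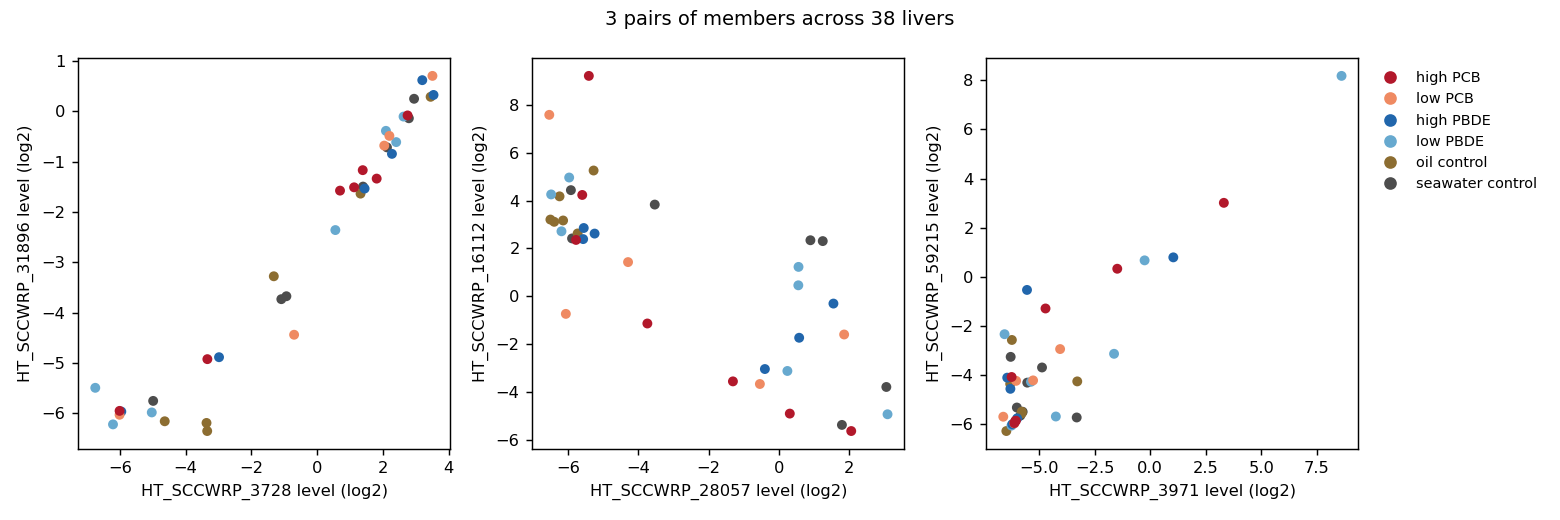
Levels (log2) of 3 pairs of members over 38 livers, 1 point per fish, coloured by group. HT_SCCWRP_3728 and HT_SCCWRP_31896 follow a line (r = 0.97), HT_SCCWRP_28057 and HT_SCCWRP_16112 run against each other (r = -0.76), and in HT_SCCWRP_3971 with HT_SCCWRP_59215 low PBDE 5 lies far from the rest. The pairs were picked for display after their values were known.

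The groups were compared with limma on all 10492 probes that were well above background on at least 5 arrays, with sex in the fit, and p was adjusted over all of them by Benjamini-Hochberg. All 100 members were in the fit. The question was whether the levels of the members followed exposure or injection. The members' residual SD had a median of 2.04 log2 units, against 0.57 over all tested probes. For an exposed group against oil, the 95% interval of a member's difference had a median half-width of 2.24 to 2.64 log2 units, that is a factor of 4.72 to 6.23. With 5 to 7 fish a group, a member of median spread therefore needed a difference of about that size for its interval to exclude 0, before adjustment.

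Over all 6 groups at once, limma's F-test called 0 of the 100 members at an adjusted p of 0.05, against 0.0381% of all tested probes. Without adjustment, p was under 0.05 for 14 members, against 7.73% of all tested probes. The group label took a median of 13.4% of the members' variance between fish and 12.9% over all tested probes, where a label of 6 groups unrelated to the levels takes 13.5% on average. The smallest adjusted p was 0.0555, of HT_SCCWRP_57380.

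The scanner software rated HT_SCCWRP_57380 above background in 6 of 7 high PCB, 5 of 5 low PCB, 6 of 6 high PBDE and 7 of 7 low PBDE fish, against 3 of 6 oil controls and 2 of 7 seawater controls. Its lowest, median and highest levels were -2.90, -0.81 and -0.29 in high PCB fish. They were -3.45, -1.65 and -0.43 in low PBDE fish and -2.51, -1.95 and -0.76 in high PBDE fish. The 5 low PCB fish had -0.39, -0.70, -1.15, -1.58 and -2.18. In oil controls the lowest, median and highest were -6.29, -3.54 and -1.36, and in seawater controls -5.95, -4.90 and -1.90. Each exposed group overlapped with the oil controls and with the seawater controls, although 25 exposed fish reached no lower than -3.45 and 5 of 7 seawater controls lay at -4.79 or less.

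Against the oil controls, HT_SCCWRP_57380 did not pass in any exposure. The difference was 2.75 ± 0.80 (SE) log2 units in low PCB fish (limma, adjusted p = 0.478) and 1.95 ± 0.68 in low PBDE fish (limma, adjusted p = 0.998). The exposures were also set against the seawater controls, a comparison added after the data were seen. There low PCB fish were higher by 3.61 ± 0.75 log2 units (limma, adjusted p = 0.0367), the 1 member called among 100, against 0.0858% of all tested probes. The call ended when any 1 of 11 fish was left out, with an adjusted p of 0.0532 to 0.144 (limma). These were seawater controls 22, 24, 50, 6 and 7, low PCB 2, 29, 39 and 52, oil control 49 and high PCB 40. Seawater control 7 is the fish whose labels differ on injection. In those 11 fits the difference was 3.36 to 3.80 log2 units. With normexp background correction it was 0.75 ± 0.20 log2 units (limma, adjusted p = 0.171), and only 2 of 7 seawater controls were well above background, so its size depends on how dim signals are treated. In male fish alone, which left 1 low PCB fish assumed to vary like the others, it was 2.98 ± 1.28 (limma, adjusted p = 0.485). High PCB fish differed from seawater controls by 2.80 ± 0.64 (limma, adjusted p = 0.0690) and low PBDE fish by 2.81 ± 0.64 (limma, adjusted p = 0.0998). High PBDE fish differed by 2.49 ± 0.69 (limma, adjusted p = 0.229). High PCB, high PBDE and low PBDE fish against seawater controls gave 0 called members (0.0762%, 0% and 0.0477% of all tested probes). Without adjustment the members passing numbered 7 in high PCB (9.05% of all tested probes), 9 in low PCB (8.32%), 11 in high PBDE (8.18%) and 12 in low PBDE fish (6.8%). These 4 comparisons share the same 7 seawater controls, and the seawater controls differ from the exposed fish in the injection as well.

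**Figure D4:**
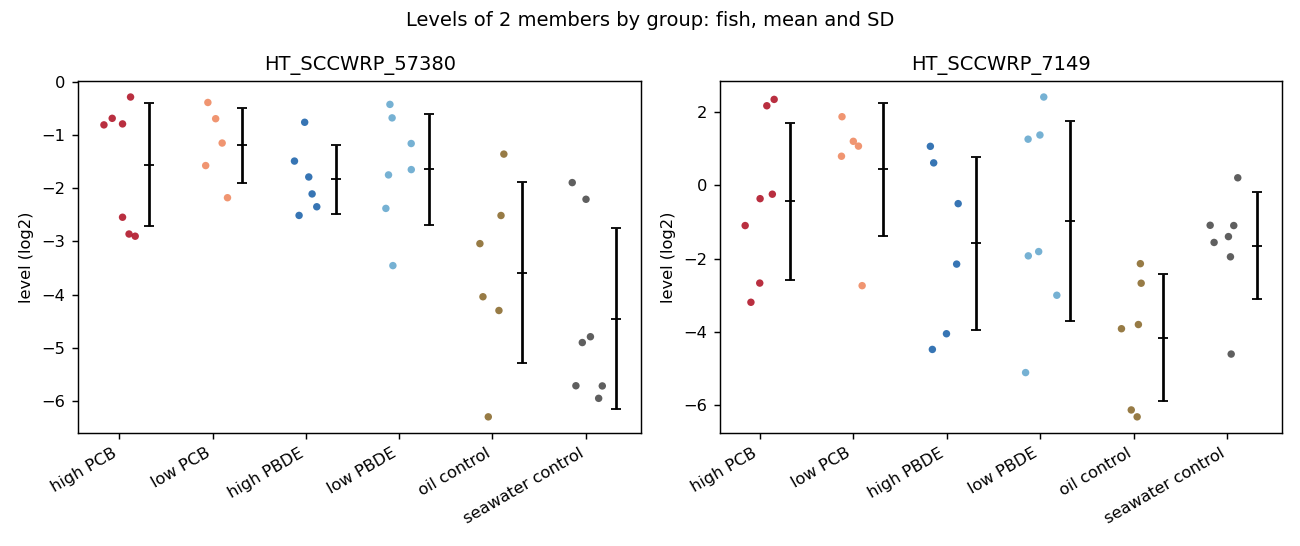
Levels (log2, vertical axis) of HT_SCCWRP_57380 and HT_SCCWRP_7149 in the 6 groups, 1 point per fish, with the mean and SD of each group beside the points. The exposed groups of HT_SCCWRP_57380 have means between -1.84 and -1.20, against -3.59 in oil controls and -4.45 in seawater controls, and the points of all groups overlap with those of the oil controls.

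For high PCB against oil control, limma called 0 of the 100 members (0.00953% of all tested probes). Without adjustment 10 passed, against 7.41% of all tested probes. Of these, 8 were higher (2.5% of all tested probes) and 2 lower (4.91%). HT_SCCWRP_14 had a lowest, median and highest level of -4.06, -1.56 and 2.13 in high PCB fish and of -6.32, -5.51 and -2.51 in oil controls. The difference was 3.75 ± 1.07 log2 units (limma, adjusted p = 0.471). The oil control median lies in the band of never-detected probes, so this difference has no firm size. HT_SCCWRP_34906 had -6.01, -3.84 and -2.19 in high PCB fish and -2.95, -1.36 and -0.91 in oil controls, a difference of -2.69 ± 0.72 (limma, adjusted p = 0.439). The high PCB fish below their median lay at -5.33 or less, where no fish was well above background for HT_SCCWRP_34906. This difference too has no firm size. Both members overlapped between the groups.

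For low PCB against oil control, 0 of the 100 members were called, as were 0% of all tested probes, and 12 passed without adjustment, against 7.51%. Of these, 10 were higher (3.67% of all tested probes) and 2 lower (3.84%). HT_SCCWRP_7149 had 1.88, 1.20, 1.07, 0.80 and -2.74 in the 5 low PCB fish and a lowest, median and highest level of -6.32, -3.85 and -2.14 in oil controls. All low PCB fish but low PCB 52 were above every oil control. The difference was 5.17 ± 1.36 log2 units (limma, adjusted p = 0.465). No fish at -3.80 or less was rated well above background for HT_SCCWRP_7149. The oil control median lay below that, so this difference has no firm size. HT_SCCWRP_65171 had -3.38, -3.38, -4.87, -4.95 and -4.97 in low PCB fish and -3.20, -2.08 and 2.03 in oil controls, a difference of -3.31 ± 1.15 (limma, adjusted p = 0.524). The low PCB fish and the oil controls did not overlap for HT_SCCWRP_65171, but -3.38 in low PCB fish lay close to the lowest oil control at -3.20. Low PCB 2, 29 and 52 were below the lowest signal rated well above background on their arrays (-2.99, -3.79 and -4.23). The fitted difference therefore has no firm size. Of the fish compared, 4 of 5 low PCB fish were female and 1 of 6 oil controls was, so sex and this exposure were separated only through the sex term of the fit.

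For high PBDE against oil control, 0 of the 100 members were called (0% of all tested probes) and 8 passed without adjustment, against 4.81%. Of these, 6 were higher (2.16% of all tested probes) and 2 lower (2.65%). HT_SCCWRP_49175 had -4.91, -2.18 and -0.82 in high PBDE fish and -6.29, -4.41 and -3.03 in oil controls. Detected fish numbered 5 of 6 in the high PBDE group and 1 of 6 among oil controls. The difference, set against oil controls mostly not detected and so of no firm size, was 2.26 ± 0.71 log2 units (limma, adjusted p = 0.981). None of the 6 high PBDE fish had HT_SCCWRP_1752 well above background, against 5 of 6 oil controls, so the difference has only a bound. Its measured means were -5.82 in high PBDE fish and -2.15 in oil controls. A bound sets the brighter mean against the lowest signal rated well above background on each array of the dim group, here -3.83 on average, or the probe's own signal where that is higher. By it the mean of HT_SCCWRP_1752 was at least 3.19-fold lower in these high PBDE fish. This holds only if oil controls not detected are taken at their measured signal. Such a bound compares group means without the sex term and was not itself tested. The fitted difference had an adjusted p of 0.981 (limma).

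For low PBDE against oil control, 0 of the 100 members were called (0% of all tested probes) and 10 passed without adjustment, against 4.4%. Of these, 8 were higher (2.33% of all tested probes) and 2 lower (2.08%). HT_SCCWRP_7149 again had the smallest p of those higher, with -5.11, -1.81 and 2.41 in low PBDE fish and -6.32, -3.85 and -2.14 in oil controls. The difference, again set against an oil control median below detection and so of no firm size, was 3.40 ± 1.15 log2 units (limma, adjusted p = 0.998). The exposures share these 6 oil controls, in which HT_SCCWRP_7149 had its lowest mean of the 6 groups. Its measured means were -4.16 in oil controls and -1.64 in seawater controls. HT_SCCWRP_23509 had -6.63, -6.01 and -2.81 in low PBDE fish and -5.77, -5.10 and -0.26 in oil controls, a difference of -1.80 ± 0.84 (limma, adjusted p = 0.998). Over all groups this member was well above background on 11 arrays. Both medians lie in the band of never-detected probes, so this difference has no firm size.

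For oil against seawater control, which asks what the injection alone did, 0 of the 100 members were called (0% of all tested probes). Without adjustment 10 passed, against 7.23%. Of these, 3 were higher (4.5% of all tested probes) and 7 lower (2.74%). HT_SCCWRP_6671 had -3.48, -2.0 and -0.88 in oil controls and -6.24, -5.47 and -3.44 in seawater controls. The highest seawater control was just above the lowest oil control, and 6 of 6 oil controls and 1 of 7 seawater controls were well above background. The fitted difference, which is set against seawater signals mostly at background and so has no firm size, was 2.98 ± 0.90 log2 units (limma, adjusted p = 0.348). HT_SCCWRP_6671 was also called between scan days (limma, adjusted p = 0.0223), with its lowest median, -3.48, on day 2. On that day 5 of 7 seawater controls and 3 of 6 oil controls were scanned. With no scan day or slide term in this fit, injection and batch were not separated for it. HT_SCCWRP_28057, part of the opposed set above, was not well above background in any of 6 oil controls and was so in 5 of 7 seawater controls. Its measured means were -6.04 in oil and -1.19 in seawater controls. Against a detection floor of -3.86 in the oil controls, its mean was at least 6.36-fold lower there, a bound that was not tested. It holds only if seawater controls not detected are taken at their measured signal. The fitted difference had an adjusted p of 0.429 (limma). Seawater controls 22 and 50 were as low as the oil controls.

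Between females and males, with group in the fit, 0 of the 100 members were called (0% of all tested probes), and 14 passed without adjustment, against 5.67%. Of these, 5 were higher in females (2.38% of all tested probes) and 9 lower (3.29%). HT_SCCWRP_49910 had a lowest, median and highest level of -4.12, -0.94 and 0.43 in 10 females and of -5.80, -2.61 and -0.04 in 26 males. The difference was 1.73 ± 0.63 log2 units (limma, adjusted p = 0.693). This member also differed between scan days, with a median of -0.51 on day 1 and -3.35 on the others. Females made up a larger share of the day 1 fish than of the rest. With no scan day or slide term in this fit, sex and batch were not separated for it. HT_SCCWRP_19367 was well above background in 0 of 10 females and 14 of 26 males. Its measured means were -4.91 in females and -3.20 in males. Against a detection floor of -3.81 in females, the mean of HT_SCCWRP_19367 was 1.53-fold lower there, which was not tested. Males not detected entered the male mean at their measured signal, so 1.53-fold is not a firm least value. The fitted difference had an adjusted p of 0.546 (limma). The 2 immature fish were at the level of the females, with a mean of -5.10.

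The arrays' technical batches were followed by a few members. With group and sex in the fit, limma's F-test called 5 of 100 members between the 8 slides, against 9.9% of all tested probes, and 6 between the 3 scan days, against 7.81%. The median share of the members' variance between fish was 17.4% for slide and 3.60% for scan day, against 25.8% and 7.52% over all tested probes. Unrelated labels of that many levels take 18.9% and 5.41% on average. Members called between both were HT_SCCWRP_29710, HT_SCCWRP_55280, HT_SCCWRP_42611 and HT_SCCWRP_49910, of which the first 3 form the cluster of 3 named above. HT_SCCWRP_6671 and HT_SCCWRP_37193 were called between scan days, and HT_SCCWRP_9241 between slides.

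HT_SCCWRP_29710 lay between 0.99 and 3.07 in the 10 fish of scan day 1, with a median of 1.75. In the 28 fish of the other days it lay between -5.66 and 0.70, with a median of -1.12. No fish of the other days reached the 10, and the adjusted p between scan days was 2.48e-05 (limma). HT_SCCWRP_55280 had a median of 0.97 on day 1 and -4.17 on the others (limma, adjusted p = 1.80e-07), with 2 of the 28 above the lowest fish of day 1. HT_SCCWRP_42611 had -0.77 on day 1 and -4.07 on the others (limma, adjusted p = 2.88e-05), with 3 of the 28 above the lowest fish of day 1. HT_SCCWRP_49910 had -0.51 on day 1 and -3.35 on the others (limma, adjusted p = 7.31e-05), with 9 of the 28 above it. The 10 fish came from all 6 groups. Females made up a larger share of them than of the other 28 fish, and sex was a term of the fit. All 10 were on 2 slides that held no fish of another day, so slide and scan day cannot be told apart for them. Whether these 10 fish differ in another way was not tested.

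**Figure D5:**
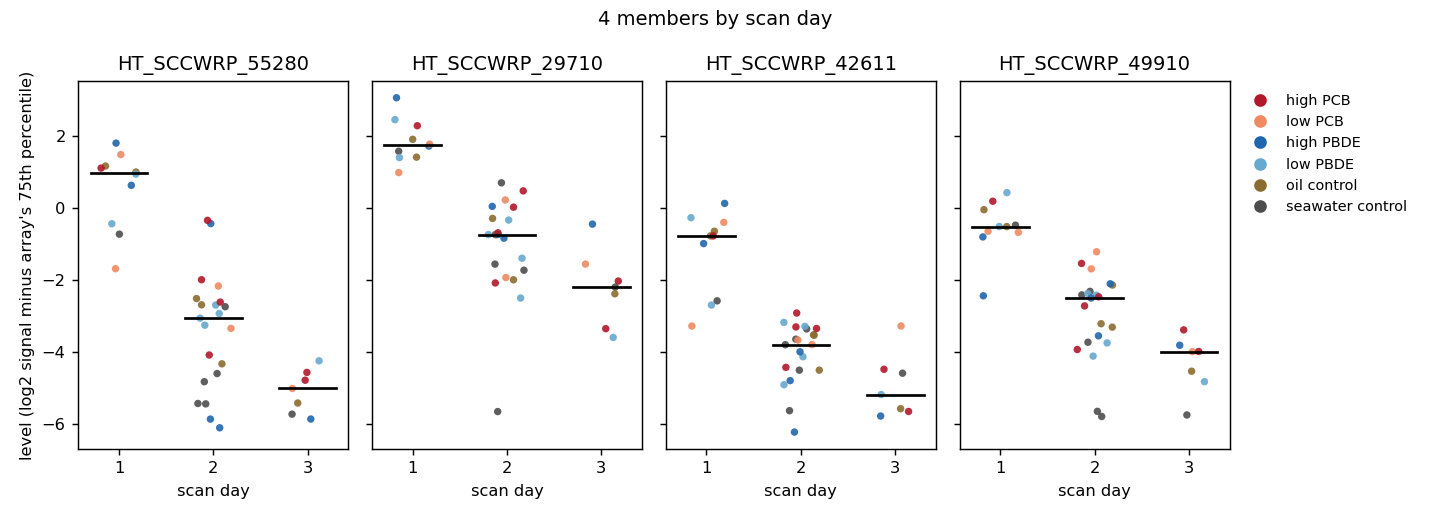
Levels (log2, vertical axis) of the 4 members called both between slides and between scan days, by scan day, 1 point per fish coloured by group, with a line at the median. The median of day 1 is the highest in all 4. In HT_SCCWRP_29710 the fish of day 1 do not overlap with the rest, and in HT_SCCWRP_49910 9 of the 28 others lie above the lowest of them.

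The cluster of 3 partly followed this split. HT_SCCWRP_55280 and HT_SCCWRP_29710 had r = 0.74 over all fish but 0.47, 0.29 and -0.77 within days 1, 2 and 3. HT_SCCWRP_55280 and HT_SCCWRP_42611 had r = 0.88 over all fish and 0.97, 0.58 and 0.18 within the days, so this pair also varied together within days 1 and 2. On day 3 both were well above background in 0 of 7 fish. The r values of that day therefore rest on signals not clearly above background. The slide call of HT_SCCWRP_9241 rested on high PCB 32, the lone fish of its slide, and ended without it (limma, adjusted p = 0.568). For HT_SCCWRP_57380, the difference of low PCB fish from seawater controls was 3.79 ± 0.72 log2 units with slide in the fit (limma, adjusted p = 0.0382) and 2.95 ± 1.13 without the fish of the first scan day (limma, adjusted p = 0.340).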

How the data were processed

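Liver RNA of 38 fish was labelled with Cy3 and hybridised to 1 Agilent array per fish. The deposited files hold the intensity of each spot, the processed intensity being background-subtracted with no scaling between arrays, and flags of 0 or 1 per spot, from Feature Extraction 11.5.1.1, per the file headers. Processed intensities of 15207 non-control spots were divided by the array's 75th percentile, taken as log2 and averaged per probe. The members and lists were chosen with earlier results of these data known. Probes well above background on at least 5 arrays (10502) were tested with limma 3.58.1 in R 4.3.3, with group and sex, after leaving out 10 with outlier flags. Replicates are separate fish. Members were named by their rank in the choice, gap, clusters and p in each comparison, while the displayed pairs and the seawater comparisons were chosen after seeing values. Without gene names, lists of marker genes could not be applied. The label fields of seawater control 7 differ in whether it was injected. The number of arrays limits the precision. The fit was tested on simulated, normally distributed levels, which do not imitate members split by a gap or lying near background. Alternatives were other normalisations, filters, slide terms, male fish only and leaving out each fish.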

Additional observations from a re-analysis of the deposited data

Results flagged for a closer look

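For the levels of 30 named members and the number of members well above background, each group of 5 to 7 fish was tested for 1 fish far from the rest by Dixon's test, 186 tests in all. Of these 21 (11.3%) passed, all of them for levels, 12 with a high and 9 with a low fish. Chance gives about 5%, and the members were chosen for spread between fish, so no more is read from the count. The values are levels in log2 units. In HT_SCCWRP_15099, low PBDE 13 stood at -3.03, with the rest of its group between 0.81 and 3.32. In HT_SCCWRP_17403, high PCB 40 stood at -6.13, with the rest of its group between 0.49 and 3.27. In HT_SCCWRP_17728, low PBDE 48 stood at -5.84, with the rest of its group between -2.21 and -0.25. In HT_SCCWRP_18515, seawater control 35 stood at -4.15, with the rest of its group between 0.83 and 4.36. In HT_SCCWRP_2146, high PBDE 44 stood at -4.57, with the rest of its group between 0.46 and 3.18. In HT_SCCWRP_2305, oil control 15 stood at -6.12, with the rest of its group between 0.03 and 1.39, and high PBDE 4 stood at -6.17, with the rest of its group between 0.11 and 1.93. In HT_SCCWRP_23509, low PBDE 13 stood at -2.81, with the rest of its group between -6.63 and -5.12. In HT_SCCWRP_36740, seawater control 50 stood at 4.74, with the rest of its group between -5.95 and -4.72, and low PBDE 48 stood at 4.47, with the rest of its group between -6.64 and -4.90. In HT_SCCWRP_36740, high PBDE 11 stood at 3.57, with the rest of its group between -6.19 and -5.33, and low PCB 2 stood at -3.56, with the rest of its group between -6.46 and -5.74. Low PCB 2 was not rated well above background for HT_SCCWRP_36740. The median level of never-detected probes was -4.98 on its array and -5.85 or less on the other low PCB arrays. In HT_SCCWRP_36740, high PCB 3 stood at 3.06, with the rest of its group between -5.92 and -4.12. In HT_SCCWRP_42611, low PCB 39 stood at -0.40, with the rest of its group between -3.80 and -3.28. Low PCB 39 was scanned on day 1, as was low PCB 33 among the rest. In HT_SCCWRP_43085, low PCB 2 stood at -3.25, with the rest of its group between 3.21 and 5.11. In HT_SCCWRP_7149, low PCB 52 stood at -2.74, with the rest of its group between 0.80 and 1.88. In HT_SCCWRP_9241, seawater control 24 stood at -0.14, with the rest of its group between -5.87 and -3.46, and high PBDE 11 stood at 1.40, with the rest of its group between -6.08 and -5.35. In HT_SCCWRP_9241, high PCB 32 stood at 2.86, with the rest of its group between -6.16 and -5.50. In HT_SCCWRP_9252, seawater control 35 stood at 0.36, with the rest of its group between -6.01 and -4.32, and high PCB 41 stood at -0.60, with the rest of its group between -5.88 and -3.90.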

How the results depend on the processing

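The choice of members kept 93 to 97 of the 100 when 1 fish was left out, and 66 were kept in all 38 such repeats. It kept 91 after quantile normalisation, 87 when probes had to be detected on 5 to 33 arrays, and 100 from the deposited value table. With normexp background correction 68 were kept, and of the 100 probes then chosen only 16 had a gap of 1 log2 unit or more. The spread of the 30 named members shrank to between 0.91 and 6.16 log2 units. The added offset of 50 compresses dim signals by construction. Leaving out 1 fish, 51 to 58 of the 100 probes chosen anew had a gap of 1 log2 unit or more. The number of members in clusters of 3 or more was 3, and became 0 at a cluster height of 0.2, 7 at a height of 0.5 and 0 with Spearman correlation. For differences between any of the 6 groups, 1 member in place of 0 (HT_SCCWRP_57380 each time) was called after quantile normalisation, with slide as a random block and with no sex term, and 0 to 1 when 1 fish was left out. The calls came without seawater control 35 or 46, oil control 15, low PBDE 12 or 5, low PCB 33, or high PCB 41. Over its 47 alternatives the adjusted p (limma) of HT_SCCWRP_57380 ran from 0.0236 to 0.644. With seawater controls in place of oil controls, 1 member was called for low PCB, and that call was lost in 14 of 47 alternatives. Between slides 3 members were called in male fish only, and 5 to 8 when 1 fish was left out, 8 without high PBDE 44. Whichever fish was left out, 0 members were called for each exposure against oil, for the oil injection and for sex. Of 615 repeats of 13 named differences, 0 reversed direction. The differences were picked for small p and most repeats left out only 1 fish, so this says little about how firm the directions are. Since 1 of the 13 was called, the 14 lost calls all fall on it, and that the others stayed uncalled says nothing about stability. The cause of these changes was not tested otherwise. No paired analysis was possible because no fish number occurs in more than 1 group. Signals near background, and groups of 5 to 7 fish, limit what could be detected.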
